A study of Homo sapiens with 16 samples.

Results

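The 10 genes described here encode subunits of 3 assemblies that travel with RNA polymerase II: the negative elongation factor NELF (NELFA, NELFB, NELFCD and NELFE), the DRB sensitivity-inducing factor DSIF (SUPT4H1 and SUPT5H) and the PAF1 complex (PAF1, CTR9, CDC73 and LEO1). They were taken by gene symbol from the 57500 genes of the deposited tables, and all 10 were found once. The cells were HEK293T, derived from human embryonic kidney and carrying the SV40 large T antigen, and total RNA was read in 4 groups of 4 libraries.

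The first group was cells with a lentiviral vector for histone H2A given 1 µM JQ1 for 3 h, a compound that displaces BET bromodomain proteins from acetylated chromatin. The second was H2A cells given 2.5 µM pinometostat for 24 h, an inhibitor of the histone H3 methyltransferase DOT1L. The third was cells with the vector for H2A(E92K), in which an acidic glutamate of the nucleosome surface is replaced by a lysine, given DMSO. The reference for all of them was H2A cells given DMSO, whose treatment field reads as none and for which no time is stated. All 4 groups thus carry an H2A transgene beside the endogenous H2A genes. The sources used here do not name its promoter or say whether each line is a single clone. Nothing in the labels says whether the 4 libraries of a group came from separate cultures, so p-values measure the spread between these libraries, which may be technical.

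As background, DSIF binds the polymerase soon after it starts and, together with NELF, holds it in a paused state downstream of the promoter. The kinase P-TEFb phosphorylates the polymerase, NELF and DSIF, upon which NELF leaves, DSIF stays as a positive factor, and the PAF1 complex takes up a place that overlaps that of NELF. The PAF1 complex also promotes ubiquitylation of histone H2B, a mark that stimulates DOT1L.

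Depth ran from 17779692 to 27599686 gene counts per library. In the 16 libraries the genes had between 310 counts, for LEO1, and 4447 counts, for SUPT5H, and all 10 passed the filter on low counts that left 17306 genes. A pair of libraries stood apart from the rest. JQ1 replicate 1 had 16.5% of its counts on mitochondrial genes and E92K replicate 4 had 7.45%, while the other libraries had 3.04 to 5.04%, and results that rest on either are given with and without them. Of the markers of an embryonic kidney line, VIM had 147 to 261 TPM and CDH2 22.0 to 56.2 TPM, while PAX8 had at most 0.0311 TPM. The blood markers HBB and PTPRC had 0 and at most 0.0352 TPM, and the liver marker ALB at most 0.152 TPM. Of 4 listed fibroblast markers, COL1A1 had 32.1 to 74.7 TPM, COL1A2 11.9 to 21.8 TPM, COL3A1 6.58 to 17.4 TPM and DCN 0.390 to 1.101 TPM.

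The genes lie on 9 chromosomes. In GRCh38 coordinates of the deposited tables, the NELF genes are NELFA on the minus strand of chromosome 4 (1982714 to 2041903), NELFB on the plus strand of chromosome 9 (137255173 to 137273547), NELFCD on the plus strand of chromosome 20 (58981208 to 58995133) and NELFE on the minus strand of chromosome 6 (31952087 to 31959110). The DSIF genes are SUPT4H1 on the minus strand of chromosome 17 (58345175 to 58353093) and SUPT5H on the plus strand of chromosome 19 (39436156 to 39476670). The PAF1 complex genes are PAF1, also on chromosome 19 (minus strand, 39385852 to 39391195), CTR9 on the plus strand of chromosome 11 (10750987 to 10779743), CDC73 on the plus strand of chromosome 1 (193122017 to 193253901) and LEO1 on the minus strand of chromosome 15 (51938025 to 51971806). SUPT4H1 shares 577 of its 2079 exonic bases with the antisense gene TSPOAP1-AS1 and 143 with RNF43. The strand setting of the counting was not stated, and those neighbours had at most 5 and 275 counts in any library, against at least 1402 for SUPT4H1. How reads in the shared bases were assigned is not known, so these counts cannot show whether SUPT4H1 gained or lost reads there. RNF43 itself had 34 to 46 counts in JQ1 libraries and 195 to 275 in DMSO libraries. The SUPT4H1 pseudogenes SUPT4H1P1 and SUPT4H1P2 had at most 1 count.

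Of NELFA, NELFB, PAF1 and CTR9, the 4 genes that fell with pinometostat, the promoter windows of RefSeq (GRCh38.p14, 300 bases that end 50 bases after the annotated start) are printed 5′ to 3′ on the gene's strand as the sequences in front of the genes the results turn on. CTR9 also rose with JQ1. Capitals mark matches, on either strand, to 7 promoter motifs: the TATA box TATAAA, the CCAAT box, the GC box GGGCGG, the ETS site CCGGAAG, the E-box CACGTG, the YY1 core AAGATGGC and the NRF1 palindrome. The last is GCGC on each side of any 2 bases, and matches of different motifs may overlap. Windows run from chr4:2008925-2009224 on the minus strand for NELFA, chr9:137255077-137255376 on the plus strand for NELFB, chr19:39391057-39391356 on the minus strand for PAF1 and chr11:10750996-10751295 on the plus strand for CTR9.
NELFA: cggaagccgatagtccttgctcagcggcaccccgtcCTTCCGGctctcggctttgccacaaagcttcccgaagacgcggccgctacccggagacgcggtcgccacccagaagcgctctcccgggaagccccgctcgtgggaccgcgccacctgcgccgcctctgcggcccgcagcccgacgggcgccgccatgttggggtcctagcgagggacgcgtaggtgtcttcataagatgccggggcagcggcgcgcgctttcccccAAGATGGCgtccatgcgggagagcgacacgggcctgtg
NELFB: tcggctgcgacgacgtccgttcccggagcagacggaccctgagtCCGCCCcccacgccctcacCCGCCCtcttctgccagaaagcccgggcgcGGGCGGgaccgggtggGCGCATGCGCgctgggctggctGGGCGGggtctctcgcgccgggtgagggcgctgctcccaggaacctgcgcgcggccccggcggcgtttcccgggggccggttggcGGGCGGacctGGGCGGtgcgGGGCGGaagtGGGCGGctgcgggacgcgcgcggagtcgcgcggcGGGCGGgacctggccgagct
PAF1: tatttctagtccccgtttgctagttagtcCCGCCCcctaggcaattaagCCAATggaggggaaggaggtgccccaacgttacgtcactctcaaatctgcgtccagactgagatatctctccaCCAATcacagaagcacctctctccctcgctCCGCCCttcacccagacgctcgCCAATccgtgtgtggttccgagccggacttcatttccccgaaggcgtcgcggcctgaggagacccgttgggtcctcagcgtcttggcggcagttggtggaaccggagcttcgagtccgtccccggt
CTR9: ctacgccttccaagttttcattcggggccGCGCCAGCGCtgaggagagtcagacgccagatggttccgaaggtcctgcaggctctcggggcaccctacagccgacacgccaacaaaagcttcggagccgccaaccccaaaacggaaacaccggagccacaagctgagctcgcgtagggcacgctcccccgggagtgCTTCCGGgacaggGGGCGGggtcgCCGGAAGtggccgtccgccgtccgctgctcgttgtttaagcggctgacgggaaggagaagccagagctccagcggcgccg

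These 4 windows hold no TATAAA and no CACGTG, which occur in 11.5% and 7.26% of 35116 RefSeq promoter windows of the same length. The NELFA window has 1 CCGGAAG (10.3% of windows have one) and 1 AAGATGGC (2.89%), the second lying 13 bases after the start. NELFA's RefSeq start is at base 2008974, inside the gene span of the deposited tables, which begins at 2041903. The NELFB window has 9 GGGCGG matches and 1 NRF1 palindrome (45.0% and 8.32% of windows have at least 1), PAF1 has 3 CCAAT (34.6%) and 2 GGGCGG, and CTR9 has 2 CCGGAAG, 1 GGGCGG and 1 NRF1 palindrome. The 4 windows share no motif of the 7: GGGCGG is in NELFB, PAF1 and CTR9 but not in NELFA. They held 40, 48, 23 and 32 CpG dinucleotides in the order printed, against a median of 14 over all windows. Of the 10 genes, 9 matched an entry, and CDC73 is named only. A match of letters is a description of the sequence and not a measured binding site.

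Length-corrected levels of the subunits were unequal within each complex. They are given as deposited TPM, counts divided by exonic length and scaled to a fixed sum per library. The order in H2A cells with DMSO was NELFE at 177 ± 10.9, SUPT4H1 at 158 ± 15.2, PAF1 at 116.7 ± 5.5, NELFB at 112 ± 16.1, NELFCD at 56.4 ± 2.3, SUPT5H at 54.2 ± 9.0, NELFA at 53.3 ± 9.6, CTR9 at 42.1 ± 6.1, LEO1 at 37.3 ± 2.7 and CDC73 at 29.7 ± 3.5 TPM (SD, n = 4). All lay between the 73.7th and the 95.5th percentile of the genes tested. The libraries separated SUPT4H1 from PAF1, NELFB from NELFCD and LEO1 from CDC73, while every other pair of neighbours in that order overlapped.

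NELFE, the RNA-binding subunit of NELF, was thus read at over 3 times the TPM of NELFA or NELFCD, and SUPT4H1, the small subunit of DSIF, at nearly 3 times that of SUPT5H, its large partner. Exonic length covers all annotated exons of a gene, 2719 bases for NELFE and 2079 for SUPT4H1. It was 5935 bases for NELFA, 6298 for NELFCD and 8568 for SUPT5H. Which transcripts the cells used was not tested, so these TPM gaps rest on the annotated lengths. Mean counts in H2A cells with DMSO were 4005 for NELFE, 2615 for NELFA, 2945 for NELFCD, 2722 for SUPT4H1 and 3836 for SUPT5H. The order of the means changed in part between groups. With pinometostat SUPT4H1 came first at 182 ± 6.3 TPM and NELFE second at 171 ± 4.9 TPM, and CTR9 was ninth at 28.7 ± 3.1 TPM. With JQ1 CTR9 was sixth, at 50.2 ± 8.7 TPM. The libraries did not separate these ranks. SUPT4H1 and NELFE overlapped with pinometostat, and CTR9 overlapped the genes next to it with either compound. E92K cells had the same order as H2A cells with DMSO, CTR9 included at 41.7 ± 6.1 TPM.

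**Figure D1:**
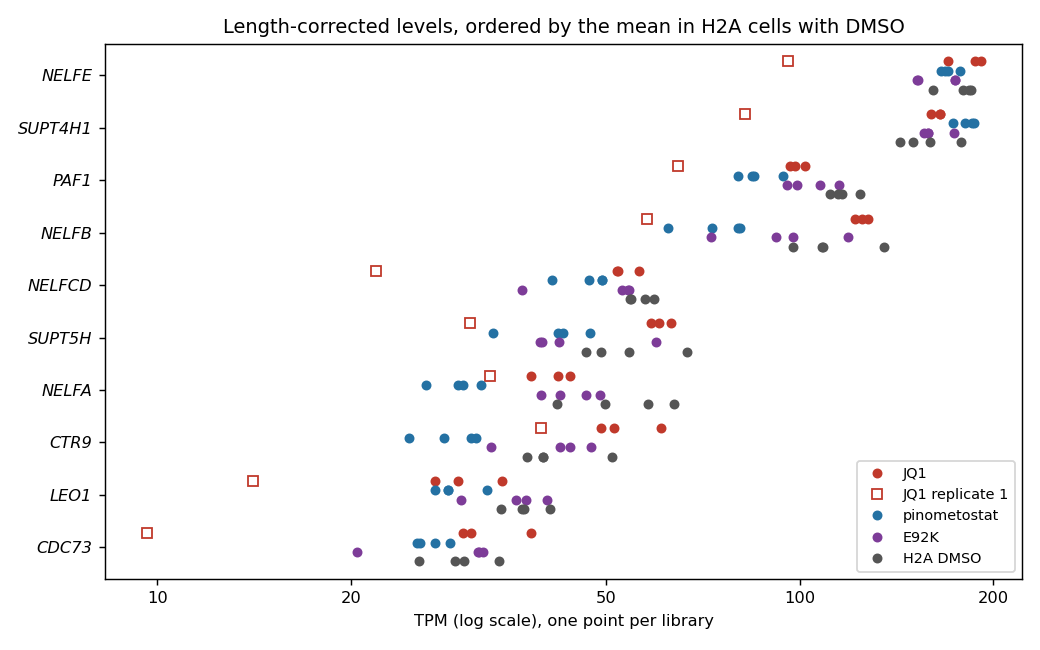
Deposited TPM of each gene (log scale) in the libraries of the 4 groups, one point per library, with genes ordered from top to bottom by their mean in H2A cells with DMSO. NELFE and SUPT4H1 lie highest and CDC73 lowest, and JQ1 replicate 1 (open squares) is the lowest of the JQ1 libraries for all 10 genes.

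JQ1 replicate 1 was the lowest of the 4 JQ1 libraries in TPM for every one of the 10 genes. NELFE had 95.9 TPM there and 170 to 191 TPM in the other JQ1 libraries, and CDC73 had 9.62 TPM there and 29.9 to 38.1 TPM in the others. The tests use counts with TMM scaling. Levels beside them are given as CPM, counts relative to the library total after TMM scaling, which are compared between libraries and not between genes. In CPM replicate 1 was lowest for 6 of the 10. NELFA (116.5 CPM), PAF1 (102.8 CPM) and CTR9 (131.2 CPM) were instead highest in that library.

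With JQ1 1 gene rose, CTR9, the tetratricopeptide scaffold of the PAF1 complex, and the log2 fold changes of the other genes lay between -0.28 and 0.22. CTR9 had 131.2, 91.6, 93.0 and 107.1 CPM in the JQ1 libraries, against 83.0, 66.1, 70.8 and 68.2 CPM in the DMSO libraries. All 4 JQ1 libraries were above all 4 DMSO libraries, and replicate 1 was the highest. The log2 fold change was 0.55 ± 0.12 (SE), a 1.47-fold rise (edgeR quasi-likelihood test, adjusted p = 0.00292 by the Benjamini-Hochberg method, BH, over all genes). Genes with an adjusted p below 0.05 are called. Without JQ1 replicate 1 it was 0.41 (adjusted p = 0.00708). In bulk RNA, a higher level per cell and more cells that express a gene cannot be told apart.

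CTR9 was the 1 gene of 10 called with JQ1, where 17.6% of all 17306 genes were called (7.16% higher and 10.4% lower). It was also the 1 gene whose JQ1 and DMSO ranges did not overlap, beside 20.5% of all genes (8.26% with JQ1 above and 12.2% below). Counted in either direction, neither share of the 10 exceeds that of all genes. Counted as higher only, 1 of 10 lies above the 7.16% and 8.26% of all genes, but rests on 1 gene. The median log2 fold change of the 10 was 0.08, beside 0.04 over all genes, and the median size of change was 0.11, beside 0.25. The call for CTR9 was lost on the log2(TPM + 1) scale with limma, where its log2 fold change was 0.24 (adjusted p = 0.334) and the median of all genes was -0.21.

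Among the other PAF1 complex subunits, LEO1, which pairs with PAF1 within the complex, had 22.5, 24.4, 25.7 and 29.2 CPM with JQ1 and 29.1, 29.5, 29.3 and 35.7 CPM with DMSO. The groups overlapped at 29.2 and 29.1 CPM only, and the log2 fold change of -0.28 ± 0.10 did not pass (edgeR, BH-adjusted p = 0.0700). DESeq2 put its adjusted p at 0.0468. PAF1, the subunit that names the complex, had 102.8, 91.3, 84.1 and 83.1 CPM with JQ1 and 96.9, 91.1, 94.99 and 101.1 CPM with DMSO, and its ranges overlapped.

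CDC73, the subunit also known as the tumour suppressor parafibromin, had 30.7, 53.8, 53.7 and 64.6 CPM with JQ1 and 53.2, 47.9, 43.7 and 50.7 CPM with DMSO. Replicate 1 was the lowest of the 16 libraries and the other 3 JQ1 libraries were above each of the DMSO libraries. The log2 fold change was 0.06 ± 0.16 with replicate 1 and 0.20 without it (edgeR, BH-adjusted p = 0.856 and 0.225).

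The NELF and DSIF genes did not pass with JQ1 in the fit of 16 libraries. Of 21 other settings NELFA passed in 2, NELFB in 1, SUPT5H in 1, and NELFCD, NELFE and SUPT4H1 in 0. Log2 fold changes ran from -0.12 (NELFA) to 0.18 (NELFB) for NELF and were 0.10 for SUPT4H1 and 0.22 for SUPT5H. NELFA, the subunit that contacts the polymerase in the paused complex, had 116.5, 87.5, 81.2 and 71.7 CPM with JQ1 and 110.3, 102.7, 94.3 and 81.0 CPM with DMSO. Replicate 1 alone lay above the DMSO libraries, and without it the log2 fold change was -0.31 (edgeR, BH-adjusted p = 0.0881). With E92K replicate 4 left out as well it was -0.30 and passed (adjusted p = 0.0368), which made 2 genes called of 10. The 95% intervals of the 6 genes reached at most from -0.42 to 0.47, so that changes larger than that lie outside them.

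**Figure D2:**
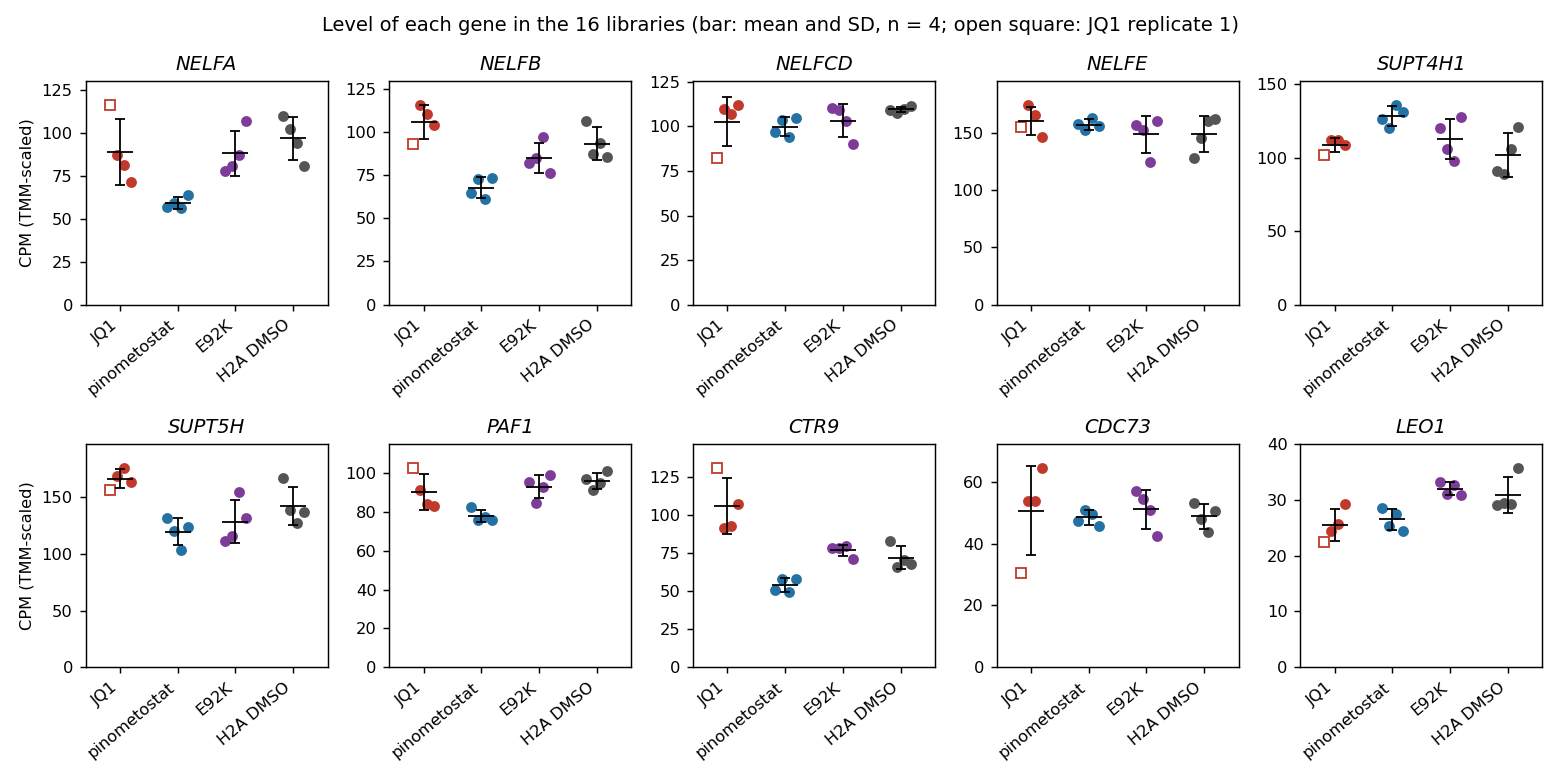
TMM-scaled CPM of each gene in each library, for JQ1, pinometostat and E92K and then H2A cells with DMSO; bars give the mean and SD (n = 4) and each vertical axis starts at 0. CTR9 is above all DMSO libraries with JQ1 and below them with pinometostat, and NELFA and NELFB are below them with pinometostat.

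With pinometostat 4 of the 10 genes fell, NELFA, NELFB, PAF1 and CTR9, and none rose. NELFA had 57.1, 59.3, 56.3 and 63.9 CPM in pinometostat libraries, against 110.3, 102.7, 94.3 and 81.0 CPM in DMSO libraries. The groups did not overlap, and the 4 DMSO libraries spread more than the 4 pinometostat libraries. The log2 fold change was -0.71 ± 0.14 (SE), 0.609 of the DMSO level (edgeR, BH-adjusted p = 0.00956). It passed in all 21 other settings, 8 of which leave out 1 library, with values between -0.84 and -0.66.

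NELFB, the core subunit that bridges NELFCD and NELFE, had 64.5, 72.6, 61.0 and 73.1 CPM with pinometostat and 106.6, 87.4, 93.4 and 85.8 CPM with DMSO. Again no pinometostat library reached the lowest DMSO library. The log2 fold change was -0.46 ± 0.11 (edgeR, BH-adjusted p = 0.0185). The adjusted p was 0.0638 without DMSO replicate 1, 0.0627 without pinometostat replicate 1 and 0.0588 without pinometostat replicate 3, with log2 fold changes of -0.41, -0.44 and -0.41.

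CTR9, which rose with JQ1, had 50.8, 58.2, 49.7 and 57.8 CPM with pinometostat and 83.0, 66.1, 70.8 and 68.2 CPM with DMSO. The groups were apart, and the log2 fold change was -0.41 ± 0.12 (edgeR, BH-adjusted p = 0.0394). PAF1 had 82.4, 75.6, 77.5 and 75.8 CPM with pinometostat and 96.9, 91.1, 94.99 and 101.1 CPM with DMSO, with a log2 fold change of -0.30 ± 0.09 (adjusted p = 0.0490). It also had no overlap between groups, but its adjusted p lay next to the threshold. With 1 library left out, the PAF1 call was kept in none of 8 fits (adjusted p 0.0684 to 0.116) and the CTR9 call in 2 of 8, those without DMSO replicate 2 or DMSO replicate 4 (range 0.0431 to 0.134), while log2 fold changes ran from -0.34 to -0.28 and from -0.47 to -0.35.

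The 4 calls of 10 were a larger share than the 8.2% of all genes called (3.62% higher and 4.58% lower). The median log2 fold change of the 10 genes was -0.24, and that of all genes was 0.03. The CPM ranges of pinometostat and DMSO libraries did not overlap for 6 of the 10, NELFCD and LEO1 being the other two, and in all 6 pinometostat was below; over all genes 26.3% did not overlap, 12.7% with pinometostat above and 13.5% below. Because all groups share each gene's estimate of spread, libraries outside the comparison bear on it. Without JQ1 replicate 1 and E92K replicate 4, the call count was 5 of 10 beside 27.4% of all genes, and with the 8 pinometostat and DMSO libraries alone it was 5 of 10 beside 27.6%.

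The added gene in both of those fits was SUPT4H1, whose log2 fold change had the opposite sign to that of SUPT5H. SUPT4H1, a zinc-finger protein that pairs with SUPT5H, had 126.4, 120.2, 135.9 and 131.4 CPM with pinometostat and 91.0, 88.8, 106.0 and 120.9 CPM with DMSO, where replicate 4 overlapped the pinometostat range. Its log2 fold change of 0.34 ± 0.11 did not pass in the 16 libraries (edgeR, BH-adjusted p = 0.0683), and was 0.33 (adjusted p = 0.0115) without JQ1 replicate 1 and E92K replicate 4. SUPT5H, the subunit that clamps nucleic acid in the polymerase and is phosphorylated by P-TEFb, had 132.0, 120.1, 103.1 and 124.0 CPM with pinometostat and 167.0, 138.7, 127.2 and 137.2 CPM with DMSO, a log2 fold change of -0.25 ± 0.12 (adjusted p = 0.192).

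None of the remaining genes passed. LEO1 had a log2 fold change of -0.22 ± 0.10 (edgeR, BH-adjusted p = 0.181), with 24.5 to 28.6 CPM in pinometostat libraries and 29.1 to 35.7 CPM in DMSO libraries. NELFCD, the subunit that binds NELFA, had a log2 fold change of -0.14 ± 0.10, with 93.9 to 104.9 CPM in pinometostat libraries and 107.8 to 111.6 CPM in DMSO libraries. NELFE had 152.6 to 163.5 CPM with pinometostat and 128.1 to 162.7 CPM with DMSO, and CDC73 had 45.8 to 51.0 CPM with pinometostat and 43.7 to 53.2 CPM with DMSO. Their log2 fold changes were 0.08 (95% interval -0.14 to 0.30) and -0.01 (-0.35 to 0.33).

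**Figure D3:**
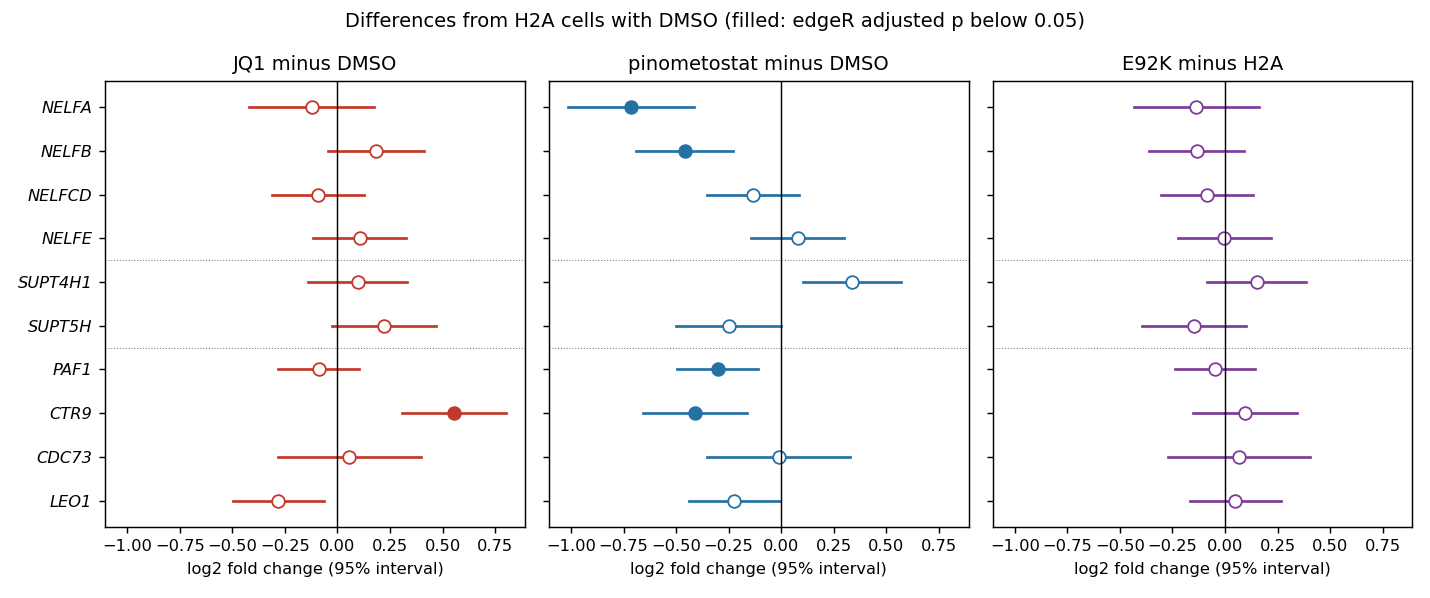
Log2 fold change of each gene against H2A cells with DMSO (points) with its 95% interval (lines) for JQ1, pinometostat and E92K; filled points have an edgeR adjusted p below 0.05. CTR9 is filled on the right of 0 for JQ1 and on the left for pinometostat, with NELFA, NELFB and PAF1, and no point is filled for E92K.

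**Figure D4:**
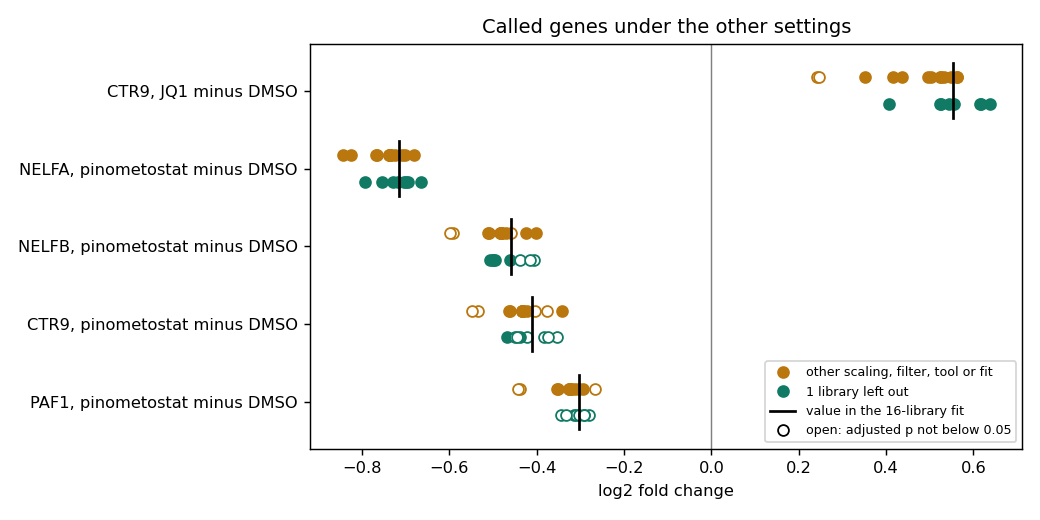
Log2 fold changes of the 5 calls against DMSO in the fit of 16 libraries (black bars), in other settings (upper point row) and with 1 library left out (lower point row); open points have an adjusted p that is not below 0.05. NELFA with pinometostat stays filled throughout, between -0.84 and -0.66, while PAF1 is open in every fit with 1 library left out.

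No difference between E92K and H2A cells passed at the 10 genes. None was called with edgeR after BH adjustment, none had an unadjusted p below 0.05, and DESeq2 called none. Of all genes 0% were called, although 1296 of 17306 had an unadjusted p below 0.05. DESeq2 called 4 genes and limma-voom with library quality weights called 6.34%, with none of the 10 among them.

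The largest difference in size was that of SUPT4H1, with 120.0, 105.9, 97.8 and 127.6 CPM in E92K cells and 91.0, 88.8, 106.0 and 120.9 CPM in H2A cells (log2 fold change 0.15 ± 0.11). SUPT5H followed with a log2 fold change of -0.15 ± 0.12. The ranges overlapped for all 10 genes, while 5.17% of all genes had ranges apart, 1.99% with E92K above and 3.18% below. Over the 10, the 95% intervals of the log2 fold change reached at most from -0.43 to 0.41, and changes beyond those lie outside them.

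Since all 3 comparisons use the same DMSO libraries, the groups were also set against each other. JQ1 and pinometostat libraries differ in compound, dose and time, which cannot be told apart in this contrast. CTR9 was 0.97 ± 0.12 higher on the log2 scale with JQ1 than with pinometostat, a 1.95-fold difference (edgeR, BH-adjusted p = 1.24e-05), and passed in all 21 other settings (0.87 without JQ1 replicate 1). No JQ1 library was below 91.6 CPM and no pinometostat library above 58.2 CPM. NELFA was highest in JQ1 replicate 1, at 116.5 CPM, and had 71.7 to 87.5 CPM in the other JQ1 libraries, against at most 63.9 CPM with pinometostat. NELFB (0.64 ± 0.11), NELFA (0.59 ± 0.14) and SUPT5H (0.47 ± 0.12) were also higher (adjusted p = 0.000234, 0.00382 and 0.00494), which gave 4 of 10 called beside 34.2% of all genes (16.8% higher and 17.4% lower). Ranges were apart for 6 of the 10, PAF1 above and SUPT4H1 below being the other two, beside 33.2% of all genes (15.3% above and 17.9% below).

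H2A cells with either compound differ from E92K cells with DMSO in genotype and treatment, which cannot be told apart in these contrasts. Between H2A cells with JQ1 and E92K cells with DMSO, CTR9 (0.46 ± 0.12), SUPT5H (0.37 ± 0.12) and NELFB (0.32 ± 0.11) were higher and LEO1 was lower (-0.33 ± 0.10). Adjusted p-values ran from 0.00875 for CTR9 to 0.0428 for NELFB (edgeR, BH), and 4 of 10 were called beside 22.9% of all genes (10.9% higher and 11.9% lower). The ranges of NELFB overlapped and those of the other 3 did not, beside 20.1% of all genes apart (8.94% above and 11.2% below). Of the 4 calls that of CTR9 alone was kept in each fit with 1 library left out, and with the 8 libraries of both groups alone none of the 10 passed. Between pinometostat and E92K cells none passed (edgeR, 0.352% of all genes, 0.185% higher and 0.168% lower). DESeq2 called 4 of the 10, and its share of all genes is not given here. Unadjusted edgeR p-values were below 0.05 for 5 of the 10, beside 3009 of all 17306 genes. Those 5, NELFA, NELFB, PAF1, CTR9 and LEO1, were below E92K cells without overlap, beside 14.5% of all genes apart (6.56% above and 7.92% below). CTR9 there had a log2 fold change of -0.51 ± 0.12 (edgeR, BH-adjusted p = 0.0624) and NELFA -0.58 ± 0.14 (adjusted p = 0.0678).

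Ratios of TPM between subunits within a library do not depend on the library's scaling. The ratio of CTR9 to PAF1 was 0.482 to 0.619 in JQ1 libraries, 0.296 to 0.369 in pinometostat libraries, 0.347 to 0.444 in E92K libraries and 0.323 to 0.411 in DMSO libraries. JQ1 libraries were all above the other 12, with replicate 1, at 0.612, among them, while pinometostat and DMSO libraries overlapped: CTR9 and PAF1 were both lower with pinometostat and their ratio was not apart. The ratio of NELFA to NELFE was 0.158 to 0.187 with pinometostat and 0.228 to 0.394 with DMSO, without overlap. That of NELFB to NELFE was 0.376 to 0.479 with pinometostat and 0.531 to 0.838 with DMSO, also apart. The ratio of SUPT4H1 to SUPT5H was 3.95 to 5.43 with pinometostat and 2.25 to 3.63 with DMSO, again apart, and 2.61 to 4.42 in E92K cells, which overlapped both. These ratios are descriptions and were not tested.

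**Figure D5:**
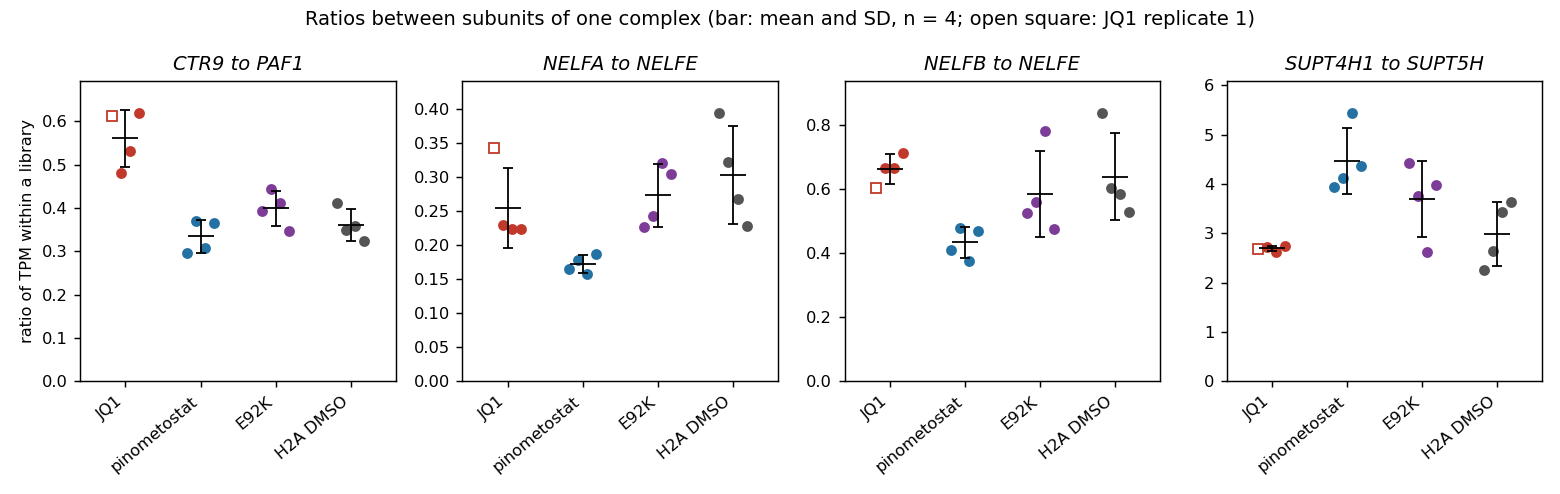
Within-library TPM ratios for 4 pairs of subunits in JQ1, pinometostat, E92K and DMSO libraries, with the mean and SD (n = 4) and axes from 0. CTR9 to PAF1 is highest with JQ1, at 0.482 to 0.619, and NELFA to NELFE lowest with pinometostat, at 0.158 to 0.187.

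Genes of the same machinery were read from lists of 68 genes in 6 groups, all of which passed the filter. The lists were chosen with earlier results of these data known. With JQ1 15 of the 68 passed (10 higher and 5 lower), with pinometostat 10 (3 higher and 7 lower), and with E92K none (edgeR). With E92K 7 had an unadjusted p below 0.05, beside 1296 of all 17306 genes, and DESeq2 called none. The counts that passed with edgeR, and those of each list given below, stand beside 17.6%, 8.2% and 0% of all genes. The shares were 7.16% higher and 10.4% lower with JQ1, and 3.62% higher and 4.58% lower with pinometostat.

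The PAF1 complex has 2 further subunits. RTF1, a more loosely held one that drives H2B ubiquitylation, had 342.4, 115.8, 120.5 and 132.3 CPM with JQ1 and 103.2, 86.6, 86.5 and 94.97 CPM with DMSO. The groups were apart, but replicate 1 was far above its group: the log2 fold change was 0.94 ± 0.26 with it and 0.38 without it (edgeR, BH-adjusted p = 0.0179 and 0.0261), and it did not pass without DMSO replicate 2 or DMSO replicate 3, nor with the 8 libraries of both groups alone (adjusted p = 0.101). WDR61, a subunit shared with the SKI complex of RNA decay, had 115.2, 107.7, 127.5 and 111.6 CPM with pinometostat and 68.7, 79.5, 90.1 and 103.5 CPM with DMSO. All pinometostat libraries were above all DMSO libraries, with a log2 fold change of 0.44 ± 0.13 (adjusted p = 0.0409). With 1 library left out it passed in 1 of 8 fits, that without DMSO replicate 4, with an adjusted p of at most 0.162.

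Of 17 genes of P-TEFb, its 7SK inhibitor and the super elongation complex, 3 rose and 1 fell with JQ1. HEXIM1, the protein that holds P-TEFb inactive on 7SK RNA and a known marker of BET inhibition, had 213.1, 121.2, 111.2 and 114.3 CPM with JQ1 and 39.5, 32.7, 29.8 and 29.8 CPM with DMSO. Replicate 1 was the highest of 4 JQ1 libraries that all lay far above DMSO, and the log2 fold change was 2.08 ± 0.18 with it and 1.78 without it (edgeR, BH-adjusted p = 4.3e-07 and 1.02e-09). CDK9, the P-TEFb kinase, rose by 0.71 ± 0.09 and MEPCE, the enzyme that caps 7SK, by 0.43 ± 0.11, while HEXIM2, a HEXIM1 paralog, fell by 0.81 on the log2 scale (adjusted p = 4.1e-05, 0.0111 and 0.00532). With pinometostat 1 rose and 3 fell: CCNT2, a cyclin partner of CDK9, had a log2 fold change of 0.46 ± 0.11, MLLT1, a reader of acylated histones that also joins DOT1L complexes, -0.47 ± 0.13, MEPCE -0.42 ± 0.11 and CDK9 -0.31 ± 0.09 (adjusted p from 0.0169 to 0.0490). CDK9, MEPCE and CTR9 were thus higher with JQ1 and lower with pinometostat, in comparisons that share their DMSO libraries. Of the lists below, POLR2E and INTS1 were also called in these opposite directions, while POLR2L was called higher with both compounds. The share of all genes called in opposite directions was not counted, so no trait of the lists can be read from these calls. On log2(TPM + 1) with limma the JQ1 calls of CDK9 (0.41, adjusted p = 0.0855) and MEPCE (0.13, adjusted p = 0.730) were lost, and MEPCE also lost its call with library size alone, without a filter and with 8 libraries, while those of HEXIM1 and HEXIM2 were kept in all 21 other settings. The pinometostat call of CDK9 was lost in each of 8 fits with 1 library left out, that of MLLT1 in 7, that of MEPCE in 6 and that of CCNT2 in 3.

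Among 14 other elongation and termination factors, PCF11, a cleavage and termination factor, rose with JQ1 (0.94 ± 0.13, adjusted p = 6.4e-05) and POLR2M, a polymerase-associated protein that restrains elongation, fell (-0.34 ± 0.10, adjusted p = 0.0236). With pinometostat GTF2F1, the large subunit of TFIIF, fell (-0.48 ± 0.10, adjusted p = 0.0130), as did SUPT16H, a subunit of the histone chaperone FACT (-0.44 ± 0.13, edgeR, BH-adjusted p = 0.0499). GTF2F1 lost its call without DMSO replicate 1 and SUPT16H in each of 8 fits with 1 library left out; POLR2M lost its call in 4 of 8.

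Of 12 RNA polymerase II subunits, 3 rose with JQ1: the catalytic subunit POLR2A (0.72 ± 0.18), and POLR2L (0.61 ± 0.13) and POLR2E (0.43 ± 0.11), which all nuclear polymerases share (adjusted p = 0.0105, 0.00294 and 0.00875). The 3 calls were kept in each fit with 1 library left out, and all 3 were lost with limma on log2(TPM + 1), at log2 fold changes of 0.41 for POLR2A, 0.33 for POLR2L and 0.13 for POLR2E (adjusted p = 0.424, 0.202 and 0.558). With library size alone POLR2A (adjusted p = 0.104) and POLR2E (0.106) lost theirs, and POLR2E also lost its call without a filter and with 8 libraries. With pinometostat POLR2L had a log2 fold change of 0.48 ± 0.13 and POLR2E one of -0.46 ± 0.11 (edgeR, BH-adjusted p = 0.0310 and 0.0164), and POLR2L lost its call in 6 of 8 such fits and POLR2E in 2.

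Across the 16 libraries, the genes whose log2 CPM was most like that of each of the 10 were chosen by Pearson's r among 11498 genes with a mean of at least 5 CPM. SUPT5H was most like BRPF1 (r = 0.98) and SUPT6H (0.97), NELFB like OTUD5 and PTBP1 (both 0.97), and NELFA like SPINDOC (0.97) and LMTK3 (0.96). CTR9 was most like HNRNPA0 and PRKACA (both 0.96), NELFCD like UBQLN1 and ALDH1A2 (both 0.95), SUPT4H1 like FAM103A1 and GSTM3 (both 0.94), and CDC73 like RPS6KB1 and MTPN (both 0.93). NELFE (DCTN3 and PHB2, both 0.91), PAF1 (ZNF414 at 0.91 and CCDC92 at 0.90) and LEO1 (TFCP2 and MCM10, both 0.89) had the weakest nearest genes. The 10 genes themselves were not each other's nearest. The points share 4 groups and their libraries, and the r values are descriptions. JQ1 replicate 1 moved some of them. Without that library r was 0.87 for CDC73 and RPS6KB1, while for SUPT5H and BRPF1 it stayed at 0.98.

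Within the 10, r ranged from -0.69 to 0.84 over 45 pairs, with 21 pairs above 0. The lowest was that of NELFA and SUPT4H1 (-0.69, and -0.68 in the 15 libraries without JQ1 replicate 1). In 16 libraries NELFA and PAF1 had the highest (0.84), followed by NELFB and SUPT5H (0.83) and NELFB and CTR9 (0.80). In the 15 libraries NELFB and CTR9 had the highest (0.91), and NELFB and SUPT5H (0.84) and NELFA and PAF1 (0.81) came after. SUPT4H1 was also opposite to NELFB (-0.67) and to SUPT5H (-0.54), its partner in DSIF. For CTR9 and CDC73, r was -0.12 in 16 libraries and 0.63 in the 15.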

How the data were processed

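Per the labels, a service provider extracted RNA and made libraries; for the aligner, the counter, the strand setting and any RNA selection, nothing is given in the sources used here. Per gene, the counts deposited by the authors are whole numbers, identical in the series table and the sample files over 920000 cells. Their deposited TPM were recomputed from counts and exonic lengths to within 5e-05. Of 56898 gene identifiers shared with GENCODE 29 (GRCh38), 96.21% had the same coordinates. Pinometostat is given in micromolar in the sample field, which was used, and in millimolar in the treatment text.

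Genes were kept with filterByExpr (minimum count 10, minimum total 15), TMM-scaled and fitted over all 16 libraries with edgeR 4.0.16 in R 4.3.3 (quasi-likelihood, two-sided), with Benjamini-Hochberg adjustment over 17306 genes. The SE is the log2 fold change divided by the square root of F. Alternatives used DESeq2 1.42.0, limma 3.58.1, other scalings and filters, a replicate block and left-out libraries; those for the direct contrasts and pathway lists were chosen after seeing the data.

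The 10 genes and the lists were chosen with earlier results of these data known, and some marker values are not reported here. Named are the 10 genes, up to 4 called genes per list and comparison with the smallest adjusted p, the 2 genes with a mean of at least 5 CPM most like each of the 10, and DOT1L as the target of pinometostat.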

Additional observations from a re-analysis of the deposited data

Results flagged for a closer look

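Each of the 10 genes was checked in each of the 4 groups of 4 libraries for a library far from the other 3, by the gap to its nearest neighbour over the range of the group, against Dixon's critical value at the 95% level. In 40 groups, 3 were past it, where chance gives about 1 in 20. NELFCD in JQ1 replicate 1 was lowest at 82.2 CPM, with 107 to 112 CPM in the other 3 JQ1 libraries, in the library with the highest mitochondrial share (16.5%); whether that share has a part in it was not tested. CTR9 in E92K replicate 4 was lowest at 71.4 CPM, with 78.1 to 79.5 CPM in the others, in the library with 7.45% mitochondrial counts. LEO1 in DMSO replicate 4 was highest at 35.7 CPM, with 29.1 to 29.5 CPM in the others. Without that library the log2 fold change of LEO1 with JQ1 was -0.20 (edgeR, Benjamini-Hochberg adjusted p = 0.212), compared with -0.28 in all 16 libraries.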

How the results depend on the processing

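Counts of the 10 genes called moved with the settings as follows. The share of all genes called moved with the settings too, as given above for pinometostat. A count here is thus not by itself a change in the 10 genes. For JQ1 minus DMSO, 1 in the main analysis became 2 with DESeq2, 3 with library size alone, 2 with upper quartile scaling, 2 with at least 50 counts in 4 libraries, 0 on either TPM scale, 5 with limma-voom quality weights, 2 without mitochondrial counts, 2 without JQ1 replicate 1 and E92K replicate 4, and 1 to 2 with 1 library left out. For pinometostat minus DMSO, 4 became 2 without a filter, 1 with the replicate block, 1 on either TPM scale and 1 to 4 with 1 library left out; it was 1, NELFA, without DMSO replicate 1, pinometostat replicate 1 or pinometostat replicate 3, and 2 without DMSO replicate 3, pinometostat replicate 2 or pinometostat replicate 4. For JQ1 minus pinometostat, 4 became 1 on either TPM scale. For JQ1 minus E92K, 4 became 1 with library size alone, 2 with upper quartile scaling, 1 without a filter, 0 with 8 libraries, 1 with the replicate block, 0 on either TPM scale, and 1 to 4 with 1 library left out (1 without E92K replicate 1 or 2 or JQ1 replicate 2 or 3, and 2 without E92K replicate 4). For pinometostat minus E92K, 0 became 4 with DESeq2, 1 with median-ratio size factors, 2 with library size alone, 2 without a filter, 2 with 8 libraries, 5 with quality weights, 2 without mitochondrial counts and 3 without JQ1 replicate 1 and E92K replicate 4. For E92K minus H2A the count was 0 in each setting.

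Calls over the 68 listed genes moved with JQ1 from 15 to 9 on either TPM scale, 32 with quality weights and 24 without JQ1 replicate 1 and E92K replicate 4, with 11 to 20 for 1 library left out. With pinometostat, 10 became 18 with DESeq2, 5 with library size alone, 5 without a filter, 26 with 8 libraries, 2 with the replicate block, 1 on either TPM scale, 31 with quality weights, 28 without JQ1 replicate 1 and E92K replicate 4, and 0 to 11 with 1 library left out, where 0 is without DMSO replicate 1. With E92K, 0 became 8 with quality weights. These counts, too, moved together with the share of all genes called and are not by themselves changes in the listed genes.

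Directions turned for differences that did not pass, the cause of which was not tested. With JQ1, library size alone gave log2 fold changes of -0.0721 for NELFE, -0.0781 for SUPT4H1 and -0.10 for CDC73, and upper quartile scaling gave -0.0105 for CDC73. On the log2(TPM + 1) and log2(TPM + 0.1) scales they were -0.11 and -0.11 for NELFB, -0.19 and -0.19 for NELFE, -0.19 and -0.19 for SUPT4H1, -0.0657 and -0.0678 for SUPT5H, and -0.27 and -0.29 for CDC73; left-out libraries put CDC73 at -0.0744 to 0.20. With pinometostat, the TPM scales gave -0.0551 and -0.0554 for NELFE, CDC73 was 0.0240 with upper quartile scaling and 0.0211 with quality weights, and left-out libraries put NELFE at -0.0036 to 0.12 and CDC73 at -0.0638 to 0.0162. With E92K, NELFE was 0.0137 with upper quartile scaling, 0.0031 with 8 libraries, 0.0155 with quality weights and -0.0758 to 0.0635 with 1 library left out, and the TPM scales gave -0.0150 and -0.0154 for CTR9, -0.0500 and -0.0522 for CDC73, and -0.0597 and -0.0614 for LEO1. The median log2 fold change of all genes was 0.04 with JQ1 after TMM scaling, -0.14 with library size alone and -0.21 on log2(TPM + 1).

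Replicate numbers did not pair the libraries: correlations of same-numbered libraries ran from -0.56 to 0.24, and none of 16 correlated best with its own number. The gene with the fewest counts, LEO1 with 310 to 952, had a standard error of 0.10, that of CDC73 was 0.16, and the smallest log2 fold change against DMSO that passed among the 10 genes was -0.30.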

Other observations

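Integrator, the complex that cleaves nascent RNA and ends transcription at paused polymerases, had 14 listed subunits. With JQ1 2 were higher and 2 lower (edgeR, Benjamini-Hochberg adjustment), beside 7.16% and 10.4% of all genes. INTS5 had a log2 fold change of 0.75 ± 0.13 and averaged 49.7 ± 8.5 CPM with JQ1 and 29.5 CPM with DMSO, and INTS1, the largest subunit, had 0.51 ± 0.15. INTS14 had -0.69 ± 0.17, at 59.2 ± 17.1 CPM with JQ1 and 95.3 CPM with DMSO (JQ1 replicate 1 was lowest at 33.6 CPM, and without it the value was -0.52), and INTS6 had -0.57 ± 0.16. Adjusted p-values ran from 0.000356 for INTS5 to 0.0252 for INTS1. The call of INTS14 was kept in all 21 other settings, and that of INTS5 with each library left out in turn but not with limma on log2(TPM + 1) (0.43, adjusted p = 0.294), while that of INTS1 was lost in 3 of 8 such fits and that of INTS6 in 5. With pinometostat INTS1 was lower, with a log2 fold change of -0.56 ± 0.15 (adjusted p = 0.0308), which was kept in 2 of 8 such fits.

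Of 9 genes for H2B ubiquitylation and the methyltransferases linked to it, SETD1B, a histone H3 lysine methyltransferase, was lower with JQ1 (-0.51 ± 0.17, adjusted p = 0.0452), and that call was kept in 2 of 8 fits with 1 library left out. With pinometostat none passed with edgeR. Unadjusted edgeR p-values were below 0.05 for 3, beside 4425 of all 17306 genes. DESeq2 called 3, and its share of all genes is not given here. DOT1L, the target of pinometostat, averaged 71.4 ± 10.9 CPM with the compound and 86.3 CPM with DMSO (log2 fold change -0.27 ± 0.15, adjusted p = 0.274). With E92K none passed with edgeR, 1 had an unadjusted p below 0.05, beside 1296 of all 17306 genes, and DESeq2 called none.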
